A study of Camellia sinensis with 9 samples.

Results

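The miR172 family of the tea plant, Camellia sinensis, was described here through 7 of the 371 miRNAs listed in a small RNA sequencing table of root, flower and leaf. The 7 members were taken by name: csn-miR172f_3p, csn-MIR172l_3p, csn-MIR172l_5p, csn-miR172a_3p, csn-miR172a_5p, csn-miR172g_5p and csn-miR172e_3p, written below without the species prefix. Of these, 4 come from the 3p arm of the precursor hairpin and 3 from the 5p arm. The table holds 15 rows named miR172, and the other 8 carried 86 reads in all. Each organ was represented by 3 libraries, root13, root23 and root33, flower1, flower2 and flower45, and leaf1, leaf23 and leaf41. All plants were untreated, and the labels give no cultivar, age, stage or plant of origin. Nothing in them says that the libraries of an organ came from separate plants, so p-values measure only the spread between these libraries, which may be technical. The table lists miRNAs only, so the organ labels were not checked against marker genes.

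In plants, miR172 guides silencing complexes to the messenger RNAs of AP2-like transcription factors, which hold back flowering and, in the flower, help to set the identity of the outer organs. In Arabidopsis thaliana it acts in the age pathway together with miR156: miR156 declines as the shoot matures, its SPL targets become active, and SPL factors promote miR172 transcription. The 3p arm is the strand known to act on AP2-like genes, and the 5p arm is its partner in the duplex cut from the hairpin.

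The mature sequences of the 7 members are shown because the members that differ in organ pattern differ by few bases. They come from the deposited table, are written 5′ to 3′ with U throughout, and carry the seed, bases 2 to 8, in capitals.
miR172f_3p: uGGGAAUCcugaugaugcugc
MIR172l_3p: gGAAUCUUgaugaugcugcag
miR172a_3p: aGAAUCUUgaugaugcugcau
miR172e_3p: gGAAUCUUgaugaugcugcau
MIR172l_5p: gGAGCAUCaucaagauucaca
miR172a_5p: gCGGCAUCauuaagauucaca
miR172g_5p: uGCGGCAUcaucaagauucac

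MIR172l_3p, miR172a_3p and miR172e_3p share the seed GAAUCUU, which 7 rows of the table carry, all of them named miR172. The first 2 differ only at their ends, by A1G and U21G, counted from the 5′ end with the base of miR172a_3p first. miR172e_3p differs from miR172a_3p by A1G alone and from MIR172l_3p by U21G alone, with the base of miR172e_3p first. miR172f_3p has a seed of its own, GGGAAUC, found in 1 row. Its letters begin 2 bases before those of the others, and over the 19 bases it shares with miR172e_3p it differs by C9U, with the base of miR172f_3p first. The 4 members of the 3p arm have the 12-base run UGAUGAUGCUGC in common, which 6 of the 371 rows hold (1.62%), all named miR172. Its reverse complement stands in 2 rows, MIR172m_5p and miR172b2_5p. Of the 5p arm, miR172a_5p shares its seed with miR172b1_5p, which is not a member. miR172g_5p overlaps miR172b1_5p without a mismatch over 20 bases and starts 1 base earlier, and the 3 members of this arm share the run AAGAUUCAC. When the arms of the same name were folded as a duplex, miR172a paired at 18 positions and MIR172l at 17, and both had 3′ overhangs of 2 bases at each end, the form in which Dicer-like enzymes release a duplex.

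No member had the same sequence as another row. The letters of miR172a_3p lie whole inside those of miR172g_3p, however, and near-identical rows such as miR172e_3p and MIR172l_3p differ by 1 base, so the split of reads between such rows is uncertain. How the authors assigned such reads is not given in the sources used here. Counts over all rows totalled 643051 to 1788497 per library, with the reads of a shared sequence counted in each of its rows. Between libraries of an organ, log2 CPM, the reads of a row scaled to a common library size of 1e+06, correlated across miRNAs at r = 0.938 to 0.969 in root and flower and at 0.954 between leaf1 and leaf23. The library leaf41 stood apart, at 0.803 with leaf1 and 0.831 with leaf23, so tested differences from leaf are also given without it. Differences were tested on the counts of all rows with edgeR's quasi-likelihood test and Benjamini-Hochberg adjustment over the 155 rows that passed a low-count filter, of which 6 were members, and a difference was called at an adjusted p under 0.05. CPM values are after TMM scaling, errors of CPM are SD over 3 libraries, and errors of log2 fold changes are standard errors (SE). All 9 libraries enter the fit, so root libraries also bear on the difference between flower and leaf, through the shared scaling, filter and spread. In bulk tissue, fewer cells that hold an miRNA and less of it per cell cannot be told apart.

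Flower held far more miR172 reads than the other organs, and nearly all of them were miR172f_3p. The 7 members together had 4151, 6032 and 3532 reads in flower1, flower2 and flower45, 62, 65 and 125 in root13, root23 and root33, and 334, 234 and 111 in leaf1, leaf23 and leaf41. As CPM of all listed counts, unscaled, this was 2464 to 3373 in flower, 53.8 to 136 in root and 126 to 405 in leaf. Without miR172f_3p the order of the libraries changed. The remaining 6 members stood at 85.1 to 201 unscaled CPM in flower, 38.0 to 94.9 in root and 80.4 to 370 in leaf, so that flower overlapped with both other organs.

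**Figure D1:**
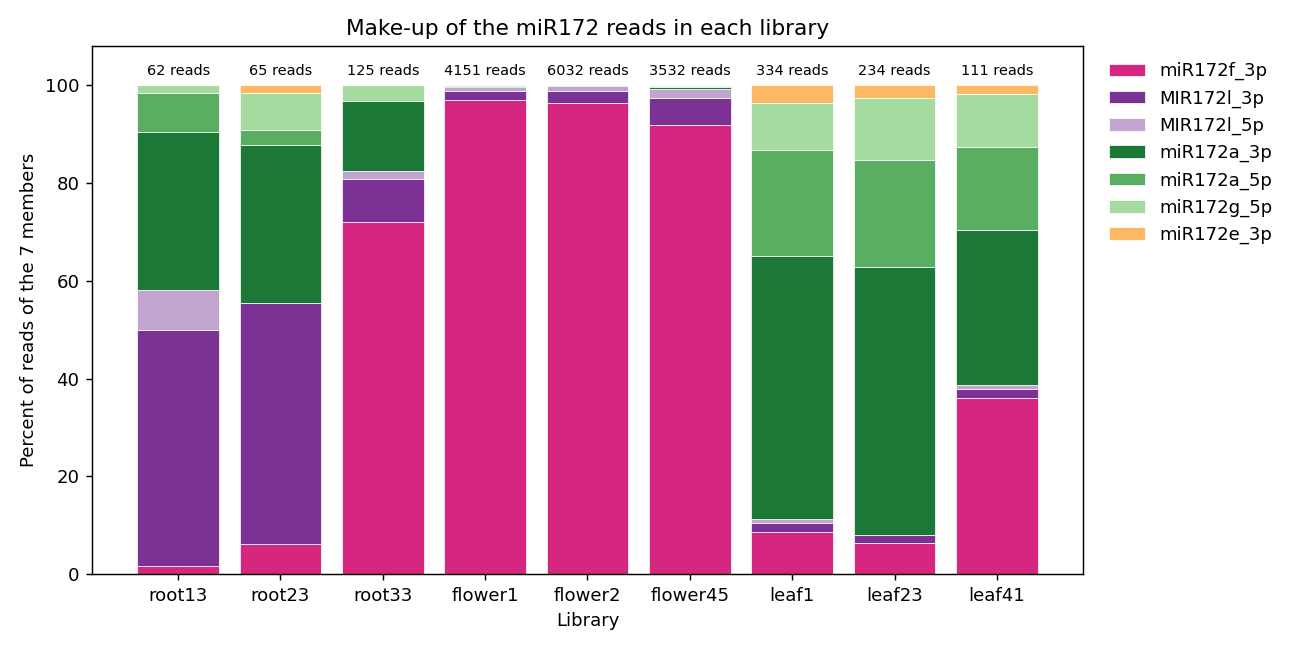
Percent of the reads of the 7 members (vertical axis) taken by each member in each library, with the number of member reads above each bar. miR172f_3p fills 91.8% to 97.0% of each flower bar, while the miR172a rows and miR172g_5p fill most of the leaf bars.

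The share of each member within a library does not depend on scaling between libraries, and by the share of miR172f_3p the flower libraries stood apart. miR172f_3p took 97.0%, 96.4% and 91.8% of the member reads in flower1, flower2 and flower45. In leaf1, leaf23 and leaf41 it took 8.68%, 6.41% and 36.0%, and in root13, root23 and root33 1.61%, 6.15% and 72.0%. The flower shares lay above those of every other library. The root33 share, with a 95% exact binomial interval of 63.3% to 79.7% that covers counting error only, was far from those of the other root libraries. The mean share was 95.1% ± 2.82 in flower, 17.0% ± 16.5 in leaf and 26.6% ± 39.4 in root (SD, n = 3 each). It differed by 78.0 percentage points between flower and leaf (87.5 without leaf41) and by 68.5 between flower and root (two-sided exact permutation test, p = 0.1 both times, the smallest that 3 against 3 libraries allow; 0.18 adjusted over the 9 tests of ratios and shares). Root and leaf differed by 9.55 points (exact permutation p = 1), and by -13.2 without root33.

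Among the reads left when miR172f_3p is set aside, leaf and flower held different members. miR172a_3p, miR172a_5p, miR172g_5p and miR172e_3p made up 97.0%, 98.2% and 95.8% of these reads in leaf1, leaf23 and leaf41. In flower1, flower2 and flower45 they made up 15.3%, 7.83% and 9.03%, the rest being both arms of MIR172l. The root libraries lay between, at 42.6%, 47.5% and 62.9%. This grouping was chosen after the values were seen and was not tested.

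miR172f_3p was the most abundant member and was higher in flower than in both other organs. Its counts were 4027, 5815 and 3244 in flower1, flower2 and flower45. They were 29, 15 and 40 in leaf1, leaf23 and leaf41, and 1, 4 and 90 in root13, root23 and root33. Every flower library lay above all others, and leaf and root overlapped because root33 alone exceeded all leaf libraries. The level was 2459 ± 670 CPM in flower, 46.9 ± 22.8 in leaf and 27.3 ± 43.5 in root. Flower exceeded leaf by log2 5.72 ± 1.35 (52.6-fold, edgeR adjusted p = 0.00554) and root by log2 6.48 ± 1.40 (89.4-fold, edgeR adjusted p = 0.00271). Without leaf41 the difference from leaf was log2 6.98 (edgeR adjusted p = 0.00405), and without root13, root23 and root33 it was 6.76, 6.95 and 6.77, called each time. Without root33 the difference from root was log2 10.18, and it was 5.42 without root13 and 5.90 without root23, all called. Root and leaf differed by log2 -0.77 ± 1.13 (edgeR adjusted p = 0.606). That value changed with the libraries kept: without root33, root was lower than leaf by log2 -3.41 (edgeR adjusted p = 0.0314). Without root13, root23 or leaf41 it was 1.33, 1.06 and 0.96, with root then higher. The level in leaf41, 46.9 CPM, was also the leaf mean, and the scaling was estimated anew in each of these fits.

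MIR172l_3p was also highest in flower, at a level more than an order of magnitude below miR172f_3p there. Its counts were 76, 141 and 198 in the flower libraries, 30, 32 and 11 in the root libraries, and 6, 4 and 2 in the leaf libraries, in the order given above. By CPM, flower at 75.2 ± 25.3 lay above all root libraries at 22.8 ± 11.9, and root overlapped with leaf at 7.72 ± 6.14. Flower exceeded leaf by log2 3.34 ± 0.91 (10.1-fold, edgeR adjusted p = 0.0102). It stood at log2 4.16 without leaf41, 4.26 without leaf1, and 4.53, 4.78 and 4.53 without root13, root23 and root33, called each time. The difference between flower and root, log2 1.72 ± 0.82, was not called (edgeR adjusted p = 0.115). With some other settings it was called: 0.0386 in edgeR scaled by the size factors of DESeq2, 0.0189 with the authors' divisor as library size, 0.0479 with each sequence counted once and 0.00627 by DESeq2 itself. It was not called with library totals (0.101), with no filter (0.203) or in a fit of those 6 libraries alone (0.0659). Nor was it called in any of the 9 fits that left out 1 library (0.0662 to 0.210). Root against leaf stood at log2 1.62 ± 0.88 (edgeR adjusted p = 0.145, and log2 2.18 with 0.0945 without leaf41). This difference was called with library totals (0.0348), the authors' divisor (0.0375), each sequence once (0.0352), DESeq2 (0.0356) and without root13 (0.0408). It was not called with the size factors of DESeq2 (0.0884), no filter (0.217), those 6 libraries alone (0.191) or without any 1 library other than root13.

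miR172a_3p, which differs from MIR172l_3p only in its first and last base, was highest in leaf. Its counts were 179, 128 and 35 in leaf1, leaf23 and leaf41, 20, 21 and 18 in root13, root23 and root33, and 9, 11 and 15 in flower1, flower2 and flower45. All leaf libraries lay above all others, although leaf41 held less than the other leaf libraries. The level was 225 ± 195 CPM in leaf, 18.2 ± 3.06 in root and 6.51 ± 1.20 in flower, with no overlap between any of the organs. Flower was below leaf by log2 -5.09 ± 1.03 (34.0-fold, edgeR adjusted p = 0.00279) and root below leaf by log2 -3.62 ± 0.96 (12.3-fold, edgeR adjusted p = 0.0153). Without leaf41 these were log2 -4.32 (edgeR adjusted p = 0.00232) and -2.93 (0.0153), and without leaf1 -4.07 and -2.75, all called. The difference between flower and leaf was -3.86, -3.57 and -3.85 without root13, root23 and root33, still called. The call between root and leaf was lost without any 1 of the root libraries, with log2 -2.18, -2.25 and -2.66 and edgeR adjusted p of 0.102, 0.115 and 0.101 without root13, root23 and root33. Flower and root differed by log2 -1.46 ± 0.90, which was not called (edgeR adjusted p = 0.201). Of the alternatives, only a fit of those 6 libraries alone called it (0.0293).

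miR172e_3p, which differs from MIR172l_3p only in its last base, followed the leaf pattern at a far lower level. It had 12, 6 and 2 reads in leaf1, leaf23 and leaf41, 1, 2 and 1 in flower1, flower2 and flower45, and 0, 1 and 0 in root13, root23 and root33. This was the 1 member that did not pass the low-count filter. Per listed count, leaf exceeded flower 9.25-fold (95% exact interval 3.10 to 37.2, 20 against 4 reads) and root 21.9-fold (3.51 to 908, 20 against 1 read). The intervals cover counting error only and not the spread between libraries. Without leaf41, which held 2 of the 20 reads, the ratios were 12.8 (4.21 to 51.9) and 30.3 (4.78 to 1262). With no filter, edgeR gave adjusted p of 0.00930 for flower and leaf and 0.00459 for root and leaf. That fit drops the filter which this member failed, and it was not run without leaf41. The 2 reads in leaf41 equal the count in flower2, so the leaf pattern of this member rests mainly on leaf1 and leaf23.

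**Figure D2:**
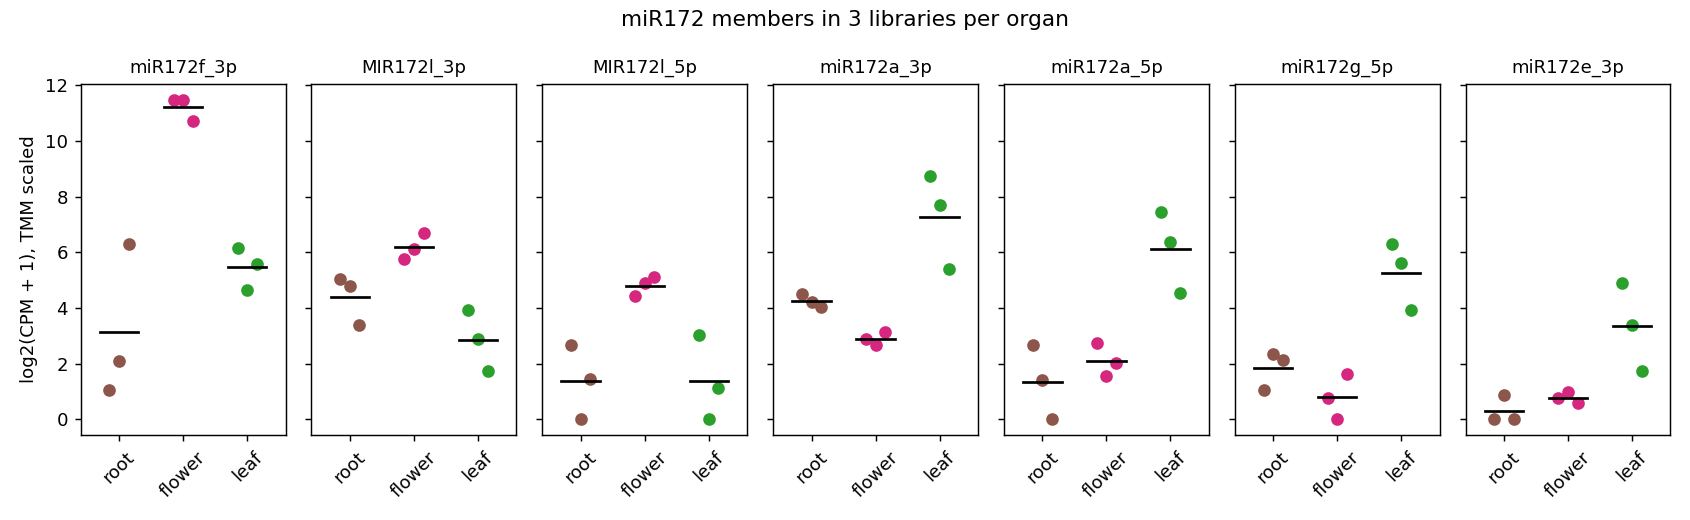
Level of each member as log2(CPM + 1) in each library (points) by organ, with the mean of the log values as a line. miR172f_3p and both arms of MIR172l are highest in flower, and the other 4 members in leaf; the high root point of miR172f_3p is root33.

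The ratio of MIR172l_3p to miR172a_3p, 2 sequences with the same seed, turned over between the organs within the libraries themselves. MIR172l_3p had 8.05, 12.3 and 12.8 times the reads of miR172a_3p in flower1, flower2 and flower45, with 0.5 added to each count. In leaf1, leaf23 and leaf41 it was miR172a_3p that had 27.6, 28.6 and 14.2 times the reads of MIR172l_3p. In root both were of like abundance: the log2 ratio was 0.57 in root13, 0.60 in root23 and -0.69 in root33. This pair was chosen after the values were seen, and the ratio was not tested.

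The 5p partners had the organ pattern of the 3p arm of the same name where flower and leaf were compared. MIR172l_5p had 29, 59 and 64 reads in flower1, flower2 and flower45, 3, 0 and 1 in leaf1, leaf23 and leaf41, and 5, 0 and 2 in root13, root23 and root33. All flower libraries lay above all others, while leaf and root overlapped. At 27.6 ± 6.56 CPM, flower exceeded leaf by log2 3.46 ± 1.19 (11.0-fold, edgeR adjusted p = 0.0329) and root by log2 3.54 ± 1.13 (11.6-fold, edgeR adjusted p = 0.0219). The first was log2 4.37 without leaf41, 5.37 without leaf1, and 4.60, 4.90 and 4.61 without root13, root23 and root33, and the second 4.54 without root13 and 4.23 without root33. The first call was lost without flower2, flower45 or leaf23 (edgeR adjusted p = 0.0646, 0.0726 and 0.0865), and the second without root23, flower2 or flower45 (0.0523, 0.0521 and 0.0509). Root and leaf stood at log2 -0.08 ± 1.31 (edgeR adjusted p = 0.98; log2 0.39 without leaf41), a sign that turned under most alternatives.

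miR172a_5p had 73, 51 and 19 reads in leaf1, leaf23 and leaf41, 8, 4 and 6 in flower1, flower2 and flower45, and 5, 2 and 0 in root13, root23 and root33. All leaf libraries lay above all others, and flower overlapped with root. At 93.1 ± 77.2 CPM in leaf, it was lower in flower by log2 -4.67 ± 1.17 (25.5-fold, edgeR adjusted p = 0.00776) and in root by log2 -5.29 ± 1.23 (39.2-fold, edgeR adjusted p = 0.00684). Without leaf41 these were -3.97 and -4.93, and without leaf1 -3.73 and -4.46, all called. Again leaf41 was the lowest leaf library, at 22.3 CPM, and the scaling was estimated anew in these fits. The difference between flower and leaf was -3.55, -3.27 and -3.54 without root13, root23 and root33, still called. That between root and leaf was -4.09 without root33, and it was not called without root23 (log2 -3.89, edgeR adjusted p = 0.065). Flower and root differed by log2 0.62 ± 1.13 (edgeR adjusted p = 0.642).

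miR172g_5p had 32, 30 and 12 reads in the leaf libraries, 1, 0 and 4 in the flower libraries, and 1, 5 and 4 in the root libraries, in the same order. Leaf again lay above all other libraries, and root and flower overlapped. At 46.3 ± 31.4 CPM in leaf, it was lower in flower by log2 -5.47 ± 1.12 (44.4-fold, edgeR adjusted p = 0.00299) and in root by log2 -3.92 ± 1.04 (15.1-fold, edgeR adjusted p = 0.0153). Without leaf41 these were -4.69 and -3.05, both called. Here too leaf41 was the lowest leaf library, at 14.1 CPM, and the scaling was estimated anew. The difference between flower and leaf was -6.61 without flower45, -4.84 without leaf1, and -4.30, -4.07 and -4.31 without root13, root23 and root33, called each time. The root difference was not called without root13 (log2 -2.05, edgeR adjusted p = 0.179), root23 (-2.94, 0.115) or root33 (-3.01, 0.126). Flower and root differed by log2 -1.56 ± 1.07 (edgeR adjusted p = 0.249). The opposite arm, miR172g_3p, had 12 reads over all libraries against 89 for miR172g_5p, but its first 21 bases are those of miR172a_3p, which had 436. The overlapping row miR172b1_5p, which is not a member, had 22, 16 and 5 reads in leaf1, leaf23 and leaf41, 14 over the flower libraries and 4 over the root libraries. The other miR172 rows had at most 12 reads each, and 3 of them had none.

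Between flower and leaf, 6 of 6 tested members were called, 3 higher and 3 lower in flower, beside 43.9% of all 155 rows called (12.9% higher and 31% lower). In fits of 6 libraries, miR172a_5p and miR172g_5p did not pass the filter without leaf, nor MIR172l_5p without flower. Being high in 1 organ thus helped these members to be tested. The counts of members called, 6 of 6 here and those of the other comparisons below, are therefore descriptions only. The adjusted p-values given above for these members carry the same limit. Between flower and root, 2 of 6 were called, both higher in flower, beside 44.5% of all rows (16.8% higher and 27.7% lower). Between root and leaf, 3 of 6 were called, all lower in root, beside 32.3% of all rows (9.03% higher and 23.2% lower). Without leaf41, 6, 2 and 3 members were called in these comparisons, beside 42.6%, 46.2% and 50.9% of all rows then tested. Of the counts of members called, that between root and leaf fell to 0 without root23, and that between flower and root to 1 without root23, flower2 or flower45. The flower libraries enter 2 of the comparisons, as do those of root and leaf, so the comparisons are not independent. The median log2 fold change of the 6 tested members was -0.67 between flower and leaf, 1.17 between flower and root and -2.19 between root and leaf, beside -1.16, -0.07 and -0.34 over all rows. Each of these member medians lies midway between 2 members and describes none of them. The first falls between 3 members called higher and 3 called lower in flower. The second falls between miR172a_5p, at log2 0.62, and MIR172l_3p, at 1.72. The third falls between miR172a_3p, at log2 -3.62, and miR172f_3p, at -0.77.

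The scaling between libraries moved all differences together. Over 5 scalings (TMM, TMM with each sequence once, library totals, size factors of DESeq2, and the authors' divisor), the median of all rows ran from -1.16 to 0.49 between flower and leaf, from -0.18 to 0.68 between flower and root and from -0.34 to 0.56 between root and leaf. The calls between flower and leaf were 20 higher and 48 lower with TMM, and 37 and 26 with the authors' divisor. Between flower and root they were 26 and 43 with TMM and 47 and 37 with the authors' divisor, and between root and leaf 14 and 36 with TMM and 38 and 24 with library totals. Every call of a member given above with TMM was made under all 5 scalings. For all 6 tested members, TMM gave the lowest log2 fold change of the 5 in flower against leaf and in root against leaf. In flower against leaf the highest were -3.26 for miR172a_3p, -2.95 for miR172a_5p and -3.77 for miR172g_5p. They were 7.31 for miR172f_3p, 5.10 for MIR172l_3p and 5.16 for MIR172l_5p. The falls given above are thus the largest of the range, and the rises the smallest. Relative to the median of all rows, miR172f_3p was higher in flower than in leaf by log2 6.83 to 6.88 and than in root by 6.37 to 6.55 under these scalings. MIR172l_3p was higher in flower than in leaf by 4.50 to 4.68, and MIR172l_5p by 4.62 to 4.74. In the other direction, miR172a_3p stood at -3.93 to -3.68, miR172a_5p at -3.56 to -3.34 and miR172g_5p at -4.31 to -4.11 in flower against leaf. In root against leaf, these 3 members stood at -3.28 to -3.07, -4.96 to -4.73 and -3.58 to -3.40 relative to the median.

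**Figure D3:**
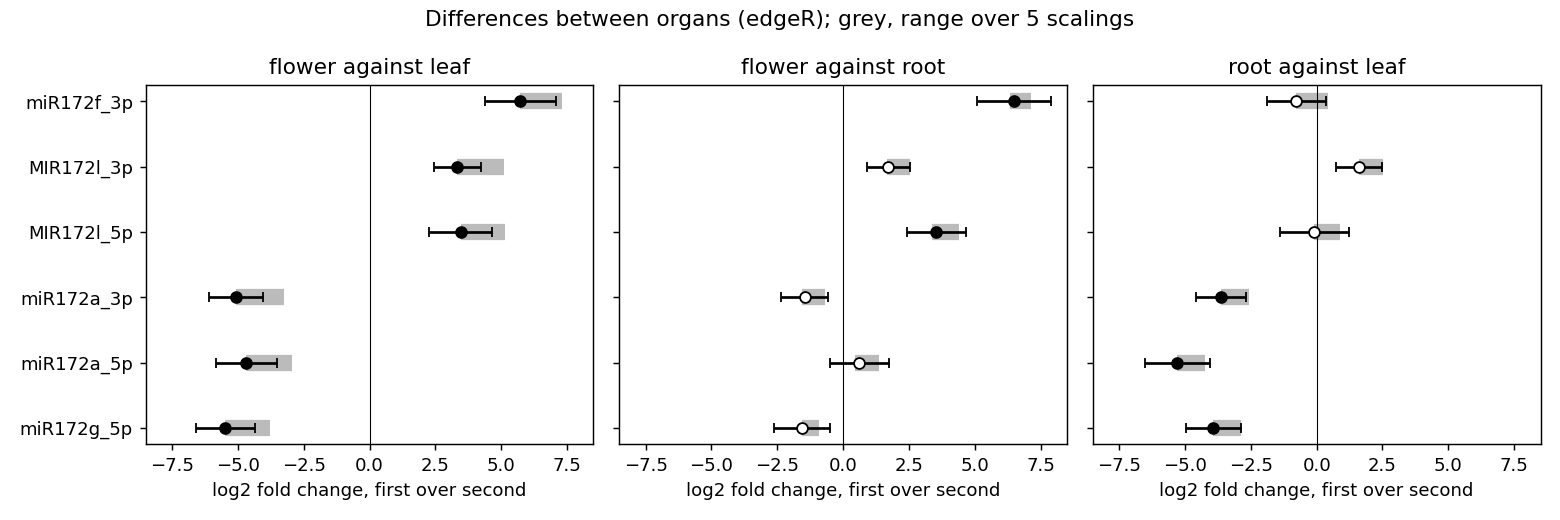
log2 fold change of the 6 tested members (points, with SE bars) in the 3 comparisons; filled points have an edgeR adjusted p under 0.05, and grey bands show the range over 5 scalings. The grey band crosses 0 for miR172f_3p and MIR172l_5p in root against leaf and for no other value.

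The 3p arm exceeded the 5p arm of the same name in all 9 libraries, for miR172a and for MIR172l. The log2 ratio of miR172a_3p to miR172a_5p, with 0.5 added to each count, was 0.16, 1.35 and 1.25 in flower1, flower2 and flower45. It was 1.29, 1.32 and 0.86 in leaf1, leaf23 and leaf41, and 1.90, 3.10 and 5.21 in root13, root23 and root33. Root lay above both other organs. The difference was -2.48 for flower minus root and 2.25 for root minus leaf, or 2.10 without leaf41 (exact permutation p = 0.1 both times, two-sided, the smallest possible; adjusted 0.18), while flower and leaf overlapped (difference -0.23, or -0.38 without leaf41; exact p = 0.8). The root values rest on 7 reads of miR172a_5p in all. For MIR172l the log2 ratio was 1.37, 1.25 and 1.62 in the flower libraries, 0.89, 3.17 and 0.74 in the leaf libraries and 2.47, 6.02 and 2.20 in the root libraries. Root lay above flower, with -2.15 for flower minus root (exact permutation p = 0.1; adjusted 0.18) and overlapped with leaf (difference 1.97, or 1.53 without leaf41; exact p = 0.3), and flower and leaf overlapped (-0.18, or -0.62 without leaf41; exact p = 1). Here leaf rests on 4 reads of the 5p arm and root on 7.

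**Figure D4:**
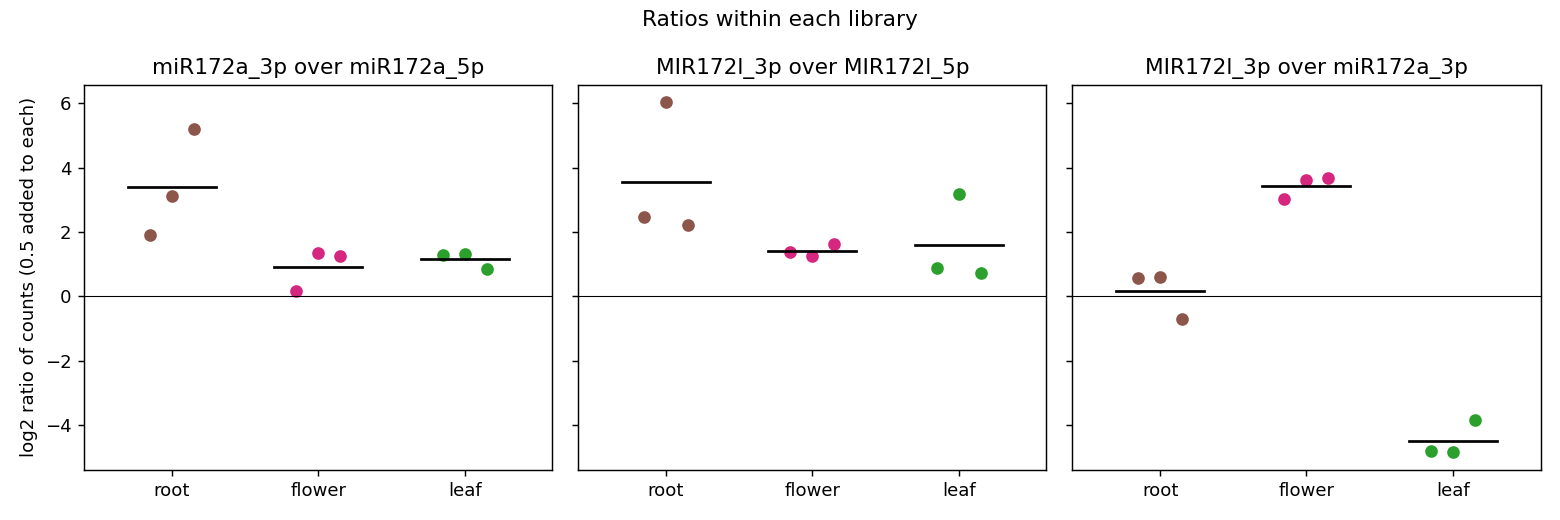
log2 ratio of counts within each library (points, with the mean as a line), for the 3p over the 5p arm of miR172a and of MIR172l, and for MIR172l_3p over miR172a_3p. Both arm ratios lie above 0 in every library; the third ratio lies above 3 in flower and below -3 in leaf.

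Across the 9 libraries, whose organ and depth the values share, the members that were high in leaf varied together. On log2 CPM, Pearson's r was 0.966 between miR172a_3p and miR172g_5p, 0.905 between miR172a_3p and miR172a_5p and 0.883 between miR172a_5p and miR172g_5p. MIR172l_3p correlated with MIR172l_5p at 0.803 and with miR172f_3p at 0.529. Among rows of other sequences, the 3 most like miR172f_3p were MIR171z_5p (r = 0.977), miR171c_3p (0.959) and miR167g_3p (0.938). Those most like MIR172l_3p were miR156h_5p (0.895), miR390a_5p (0.872) and miR390b_5p (0.848). MIR172l_5p was closest to MIR171r_3p (0.859), miR171h_3p (0.836) and miR167g_3p (0.834). In the leaf group, miR172a_3p was closest to MIR391a_5p (0.970), miR172g_5p and MIR156j_3p (0.950), and miR172g_5p to miR172a_3p, MIR156j_3p (0.965) and MIR391a_5p (0.929). miR172a_5p was closest to MIR168g_3p (0.963), MIR156j_3p (0.962) and miR168a_3p (0.958). These values are descriptions over 9 libraries of 3 organs.

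Other families of phase change and flower development gave 51 tested rows of 86, and several of their counts changed without leaf41. Rows were taken by family number, here and in the families below, so a target gene names the family and not each row. Opposite arms, such as miR156f_3p and MIR156j_3p, were counted with it, and no count was split by arm. The families grouped under SPL genes, miR156 and miR535, had 24 tested rows, both arms included. Rows that share a sequence were counted each, here and among all rows, so the counts exceed the number of distinct sequences. In flower against leaf 1 of the 24 was called higher and 17 lower, beside 12.9% and 31% of all rows, and 1 and 12 without leaf41, beside 24.9% and 17.8%. In flower against root the counts were 1 and 17, beside 16.8% and 27.7% of all rows, and 1 and 16 without leaf41, beside 16.6% and 29.6%. In root against leaf they were 4 and 6, beside 9.03% and 23.2% of all rows, and 11 and 5 without leaf41, beside 34.9% and 16%. The median log2 fold change of these rows was -4.52, -4.72 and 0.13 in the 3 comparisons, beside the medians of all rows given above.

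The most abundant SPL row, the sequence of miR535c2_5p and miR535a_5p, stood at 1634 ± 270 CPM in flower, 5977 ± 504 in root and 59214 ± 8176 in leaf, and all pairs were called by edgeR, with and without leaf41. miR156h_5p was the row higher in flower, with 272, 234 and 208 reads in the flower libraries, 16 to 23 in root and 0 to 8 in leaf (log2 4.10 ± 1.12 against leaf, edgeR adjusted p = 0.0102; 4.54 without leaf41). At the other end, the sequence of miR156f_3p and MIR156l_3p was lower in flower than in leaf by log2 -8.92 ± 1.05 (edgeR adjusted p = 4.74e-05; -7.36 without leaf41). The leaf41 library had 765 of its reads, against 285 in leaf1 and 171 in leaf23. No read of miR156c_5p and miR156e_5p, which share a sequence, was found in flower, against 9, 165 and 101 reads in root13, root23 and root33. It was called lower in flower than in root and higher in root than in leaf, where leaf41 alone had 4 reads. MIR156j_3p, of the leaf pattern of miR172a, had 861, 624 and 139 reads in leaf1, leaf23 and leaf41 and 5 in each root library (log2 -7.84 ± 1.16 for root against leaf, edgeR adjusted p = 0.00032; -7.18 without leaf41).

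miR167 acts on the auxin response factors ARF6 and ARF8. Its 10 tested rows include both arms. Of them, 3 were called higher and 3 lower in flower against leaf, beside 12.9% and 31% of all rows. Against root 2 and 2 were called, beside 16.8% and 27.7%, and in root against leaf 1 and 4, beside 9.03% and 23.2%. Without leaf41 the counts were 4 and 2, beside 24.9% and 17.8% of all rows, then 2 and 1, beside 16.6% and 29.6%. In root against leaf they were 4 and 3, beside 34.9% and 16%. Its most abundant row was miR167e_5p, at 36177 ± 17348 CPM in flower, 94733 ± 48926 in leaf and 1138 ± 559 in root. It was higher in flower than in root by log2 4.99 ± 0.60 and lower in root than in leaf by -6.38 ± 0.64, or -5.21 without leaf41, all called. Its difference between flower and leaf, log2 -1.39 (edgeR adjusted p = 0.0453), was not called without leaf41 (-0.47, 0.655). Among the rows of these families called higher with all libraries, miR167g_3p had the largest change in flower against leaf (log2 4.12 ± 1.02, edgeR adjusted p = 0.00759; 5.36 without leaf41) and MIR167p_3p in root against leaf (5.95 ± 1.29, 0.00452; 6.95 without leaf41). miR167g_3p was also higher in flower than in root, by 3.72 ± 0.995.

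In families with 1 to 9 tested rows, several calls changed without leaf41. Each count stands beside the background shares of the same comparison, with or without leaf41, given for miR167. Of 5 rows of miR159, on GAMYB-like genes, 4 were lower in flower than in leaf and 2 lower than in root, with 1 higher and 2 lower in root than in leaf. Without leaf41, 1 was higher and none lower in flower against leaf, beside 24.9% and 17.8% of all rows. In root against leaf it was then 1 and none, beside 34.9% and 16%. Its leading row miR159a_3p, which shares its sequence with miR159b_5p, stood at 32155 ± 9170 CPM in flower, 33443 ± 2518 in root and 127128 ± 91429 in leaf. The difference of this row between flower and leaf, log2 -1.98 (edgeR adjusted p = 0.00873), was not called without leaf41 (-1.19, 0.116). Nor was that between root and leaf (-1.93 and 0.0153 with leaf41, -1.08 and 0.134 without). miR319a_3p, on TCP genes, was higher in flower than in leaf by log2 2.84 (edgeR adjusted p = 0.0242), or 4.81 without leaf41, and it had 22, 316 and 853 reads in leaf1, leaf23 and leaf41. Its difference between root and leaf, log2 2.31 (edgeR adjusted p = 0.0648), was called without leaf41 (4.04, 0.0070). Of the 2 tested rows of miR319, the other was lower in flower than in root. miR164b2_5p, the single tested row on NAC genes, was lower in root than in leaf by log2 -1.78 (edgeR adjusted p = 0.0224) but not without leaf41 (-0.78, 0.314). Of 9 rows of miR169, on NF-YA genes, 2 were lower in flower than in leaf, 2 lower than in root and 1 lower in root than in leaf. Without leaf41, 10 were tested, with 4 higher and 1 lower in flower than in leaf and 7 higher and 1 lower in root than in leaf, beside the 24.9%, 17.8%, 34.9% and 16% of all rows given above, and 5 lower in flower than in root. Its most abundant sequence, MIR169g_5p and miR169a_5p, had 171 reads in leaf41 against 3 and 6 in leaf1 and leaf23. It was called in no pair with all libraries (edgeR adjusted p = 0.115 to 0.676), and without leaf41 it was higher in flower than in leaf by log2 3.69 (0.0229) and in root than in leaf by 6.32 (0.00221), and lower in flower than in root by -2.63 (0.0310).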

How the data were processed

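Small RNA was sequenced from total RNA (TRIzol) of 3 libraries per organ, after removal of ribosomal RNA, per the labels' protocols. The deposited table gives whole numbers for each miRNA and library, in columns headed by the library name alone. These were taken as raw read counts that the authors did not normalise, since other columns are marked as normalised. Beside each stands a normalised score, called RPTM in the header and rounded by the authors to whole numbers. Dividing each count by a constant of its library, 2.11 to 2.25, gives this score, and the constant served as an alternative library size. For trimming, alignment, counting and build, no tool or version is given in the sources used here. The column heads spell leaf as leave. A blank row (1, with no counts) was left out.

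The test was that of edgeR 4.0.16, run under R 4.3.3 (filterByExpr by organ, TMM, glmQLFit, glmQLFTest, all 9 libraries in 1 fit, organ as the factor). It was also run on simulated counts with as many rows raised as lowered. That run does not cover one-sided shifts between organs, on which the scaling bears. Alternatives were DESeq2 1.42.0, other scalings, each sequence once, no filter, 6 libraries, and leaving out each library. The values of miR172e_3p and of the pathway rows without leaf41 were added after seeing the data. The SE is the absolute log2 fold change over the square root of F. Ratios within libraries were compared with exact permutation tests (scipy 1.17.1), and duplexes folded with RNAduplex (ViennaRNA 2.7.2). Named were the 7 members, other miR172 rows, the 3 rows most like each tested member by Pearson's r of log2 CPM (prior count 2), and, of the pathway families, the most abundant row per target group and the 2 called rows with the largest change in each direction per comparison. Members and lists were chosen with earlier results of these data known. Depth was 643051 to 1788497 counts per library, at which 3 reads come to 1.48 to 7.21 CPM. These totals count the reads of a shared sequence in each of its rows. With each sequence once they ran from 369605 in root13 to 1073284 in flower2. The totals over all rows are the denominators of the unscaled CPM and of the ratios per listed count.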

Additional observations from a re-analysis of the deposited data

How the results depend on the processing

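For the 6 tested members in 3 comparisons, 7 alternatives besides leaving out a library gave 123 of 126 values. The filter dropped the other 3 in fits of 6 libraries: miR172a_5p and miR172g_5p in flower against root and MIR172l_5p in root against leaf. Of the 123, 9 turned and 9 rose past the threshold, and none ended a call. Those that turned were small and uncalled values of root against leaf. miR172f_3p went from -0.77 to 0.058 with library totals, 0.19 with the authors' divisor and 0.42 with each sequence once. MIR172l_5p went from -0.08 to 0.40 with DESeq2, 0.38 with its size factors, 0.88 with library totals, 0.75 with the authors' divisor, 0.78 with each sequence once and 0.045 with no filter. Over the 9 fits that leave out 1 library each, 13 values lost their call, 2 gained one and 8 turned. They gave -3.41 to 1.33 for miR172f_3p and -0.72 to 1.69 for MIR172l_5p. Of the pathway rows without leaf41, an alternative added after seeing the data, MIR169g_5p turned from -0.61 to 3.69 and miR164b2_5p from -0.77 to 0.43 in flower against leaf. The cause was not tested.

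The number of members called was 5 or 6 between flower and leaf, 1 or 2 between flower and root and 0 to 3 between root and leaf when 1 library was left out. The ratio of MIR172l_3p to MIR172l_5p in flower against leaf turned from -0.18 to 0.17 with 1 added to each count, and ran from -0.62 to 0.60 when 1 library was left out. For miR172a the same difference ran from -0.45 to 0.15. The share of miR172f_3p in root against leaf ran from -13.2 to 22.0 points. No 2 organs shared more than 1 library number, so no pairing was fitted. Low counts limit MIR172l_5p, miR172a_5p and miR172g_5p outside the organ where each is high, and miR172e_3p everywhere.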
